A study of Mus musculus with 103 samples.

Results

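Interferon-stimulated genes are the genes that a cell switches on after it has sensed interferon. The 51 described here were chosen by symbol as known interferon targets, with no threshold on their measured values, and make up 51 of the 23339 genes in the table of RNA-seq values. Earlier results of these data were known when the list was chosen, so counts of members set against all genes are a description. All 51 were also present in the nascent-RNA tables. A gene was tested when it reached 1 RPKM (reads scaled to transcript length and to library size) in at least 2 of the 27 libraries of that table, which 12604 genes did. Of the members 50 passed this filter, and 47 reached 1 RPKM in at least 2 resting libraries. Mx1 did not pass, with a highest value of 0.976 RPKM.

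The cells were quiescent mouse embryonic fibroblasts of the C57BL/6 strain taken from embryos of 13.5 d, and the study deleted genes of the cohesin and CTCF system in them. Cells without a Cre gene were exposed for 4 h to Adeno-Cre, an adenovirus that carries Cre recombinase, and then rested for 10 d: wild-type cells (clones 2 and 3), Ctcf fl/fl cells (clones 1 and 2) and Ctcf fl/fl Wapl fl/fl cells (clone 4). The cells these were set against rested for 10 d without virus: Ctcf fl/fl clones 1 and 2, Ctcf fl/fl Wapl fl/fl clones 3 and 4, and wild-type clones 2 and 3. A second set carried Rosa26 CreER/+, in which hydroxytamoxifen activates Cre without a virus: Smc3 fl/fl cells (clone 1), Smc3 fl/- cells (clones 2, 3 and 4), Wapl fl/- cells (clones 1 and 2) and Cre-ER cells with no floxed gene (clones 2 and 3). Each of these was measured after 2 to 3 d of hydroxytamoxifen and 10 d of rest, and after 10 d of rest alone. Nascent RNA was measured in Ctcf fl/fl Wapl fl/fl cells with Adeno-Cre and at rest (clones 1 and 2). Treated cells of this line were also given DRB, a block of polymerase release, for 3.5 h, with or without 1 d free of DRB afterwards. The labels give a clone number for each line and do not say how many embryos the clones came from, so p-values measure the spread between clones. The resting wild-type cells were the reference for all resting cell lines. Treated cells met both the virus and Cre, so an effect of the virus and an effect of Cre cannot be told apart in the wild-type comparison, and the loss of CTCF or WAPL comes on top of both in the floxed cells.

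Interferons bind receptors at the cell surface, and the receptor kinases then activate STAT proteins. STAT2 and IRF9 are parts of a complex that binds a promoter element with repeated GAAA blocks and starts transcription of interferon-stimulated genes. IRF7 is one of them and in turn raises interferon production, while others encode sensors of viral nucleic acid, proteins that block viral replication and parts of the antigen presentation pathway. Fibroblasts keep a low level of many of these genes without infection and raise them after contact with virus.

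The core of that element (GAAA, then any 2 bases, then GAAA, on either strand) was looked for from 250 bases before to 50 after the gene start in RefSeq promoters of the mouse build GRCm38.p6. It was present for 18 of the 41 members with an entry (43.9%) and for 1079 of 27025 genes (3.99%). The STAT element TTCNNNGAA, read on both strands in the same windows, was present for 9 of 41 members (22%) and 9.55% of all genes. A match describes letters in a window and is not a binding site. The promoters of 5 members are shown because these genes carry the contrasts that follow: Isg15, Ifit1 and Bst2 were among the members with the largest changes, H2-T23 rose in wild-type cells and in neither floxed line, and Oasl1 was the member called in all 3 Adeno-Cre comparisons. Each is given 5′ to 3′ on the strand of the gene, with matches to the GAAA repeat or its complement in capitals. The windows are Isg15 at chr4:156200769-156201068 on the minus strand, Ifit1 at chr19:34640639-34640938 on the plus strand, Bst2 at chr8:71537423-71537722 on the minus strand, H2-T23 at chr17:36032652-36032951 on the minus strand and Oasl1 at chr5:114922990-114923289 on the plus strand.
Isg15: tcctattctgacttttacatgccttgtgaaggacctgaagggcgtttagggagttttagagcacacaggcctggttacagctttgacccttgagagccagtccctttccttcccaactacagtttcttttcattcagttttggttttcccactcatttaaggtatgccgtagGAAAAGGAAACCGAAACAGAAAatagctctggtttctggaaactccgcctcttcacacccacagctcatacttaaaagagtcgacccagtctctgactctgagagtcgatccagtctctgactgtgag
Ifit1: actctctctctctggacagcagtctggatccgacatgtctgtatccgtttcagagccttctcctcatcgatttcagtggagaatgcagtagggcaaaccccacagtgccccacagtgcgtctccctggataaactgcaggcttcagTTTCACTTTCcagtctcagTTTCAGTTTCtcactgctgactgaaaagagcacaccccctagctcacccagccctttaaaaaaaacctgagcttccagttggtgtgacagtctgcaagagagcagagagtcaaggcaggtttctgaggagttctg
Bst2: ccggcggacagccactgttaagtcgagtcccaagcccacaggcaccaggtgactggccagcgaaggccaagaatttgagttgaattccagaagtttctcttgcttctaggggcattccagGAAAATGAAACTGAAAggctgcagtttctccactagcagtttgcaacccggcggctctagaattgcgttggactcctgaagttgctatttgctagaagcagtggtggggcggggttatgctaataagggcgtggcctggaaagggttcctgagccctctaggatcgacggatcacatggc
H2-T23: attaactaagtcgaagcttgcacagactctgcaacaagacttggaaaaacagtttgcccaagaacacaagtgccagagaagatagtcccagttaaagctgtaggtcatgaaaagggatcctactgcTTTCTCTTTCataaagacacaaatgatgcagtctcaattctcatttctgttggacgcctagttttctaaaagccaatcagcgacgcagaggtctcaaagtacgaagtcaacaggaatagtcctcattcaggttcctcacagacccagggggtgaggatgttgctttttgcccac
Oasl1: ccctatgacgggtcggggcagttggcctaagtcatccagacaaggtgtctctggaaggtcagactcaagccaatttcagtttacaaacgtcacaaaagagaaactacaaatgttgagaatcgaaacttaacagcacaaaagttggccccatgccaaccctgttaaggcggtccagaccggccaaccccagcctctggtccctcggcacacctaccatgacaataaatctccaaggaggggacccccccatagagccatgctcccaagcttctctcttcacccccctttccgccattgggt

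Isg15 held 3 overlapping matches that start 78, 72 and 66 bases before the gene start. Ifit1 and Bst2 held 2 each, H2-T23 held 1, and none was found in the Oasl1 window. No entry was at hand for Usp18, Zbp1, Mx1, Mx2, Oas2, Dhx58, Rtp4, Tor3a, Parp9 and Parp14.

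Library depth lay between 7.315 and 36.832 M reads, so 1 RPKM at the median transcript length stood for 21.65 to 109 reads. Libraries of a group correlated with r of 0.948 to 0.991 across genes. The targeted gene Ctcf averaged 4.13 RPKM in Ctcf fl/fl cells with Adeno-Cre and 12.4 RPKM at rest (limma, adjusted p = 1.69e-06). In Ctcf fl/fl Wapl fl/fl cells it was at 3.76 RPKM with Adeno-Cre and averaged 10.9 RPKM at rest (limma, adjusted p = 2.21e-05), and Wapl, listed as Wapal, was at 1.52 RPKM with Adeno-Cre and averaged 3.32 RPKM at rest (limma, adjusted p = 0.0275). In Wapl fl/- cells Wapal was at 0.78 and 0.914 RPKM with hydroxytamoxifen and at 1.8 and 1.48 RPKM at rest and did not pass (limma, adjusted p = 0.167). Smc3 was not lower in any Smc3-floxed clone: it averaged 11.6 RPKM in the libraries labelled hydroxytamoxifen and 9.53 RPKM at rest (limma, adjusted p = 0.119). Whether Smc3 was deleted cannot be read from this level, because it is not known which stretch of Smc3 the recombinase cuts out. All 14 fibroblast markers were detected. Of 22 listed macrophage markers 20 were in the table and at most 2 of them were at 0 in any library; their summed level differed widely between clones and stands beside the results it moves with.

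Adeno-Cre raised interferon-stimulated genes in wild-type cells. Of the 50 members tested 27 rose and none fell (limma, Benjamini-Hochberg adjusted p below 0.05), where 2.7% of all genes tested rose and 0.54% fell. The members' median change on the scale of log2(RPKM + 1) was 1.5, against 0.04 for all genes. All 51 members were higher in both treated libraries than in either resting library, which held for 32.4% of all genes. The median change was 1.63 in clone 2 and 1.27 in clone 3. When the clone was a fixed block, the form meant wherever no other is named, 48 members rose. In bulk RNA, more cells that express a gene and more RNA per cell cannot be told apart. The count depended on single libraries of both clones: 2 members rose without the treated library of clone 2, 5 without the resting library of clone 3 and 9 without the resting library of clone 2. When only the 4 wild-type libraries entered the fit, limma called no member and no other gene, with 44 members at an unadjusted p below 0.05. Dendritic cell markers summed to 7.38 and 9.67 RPKM with Adeno-Cre and to 1.39 and 2.18 RPKM at rest over the 2 clones, and macrophage markers were lower with Adeno-Cre in both clones; their part in the result was not tested.

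**Figure D1:**
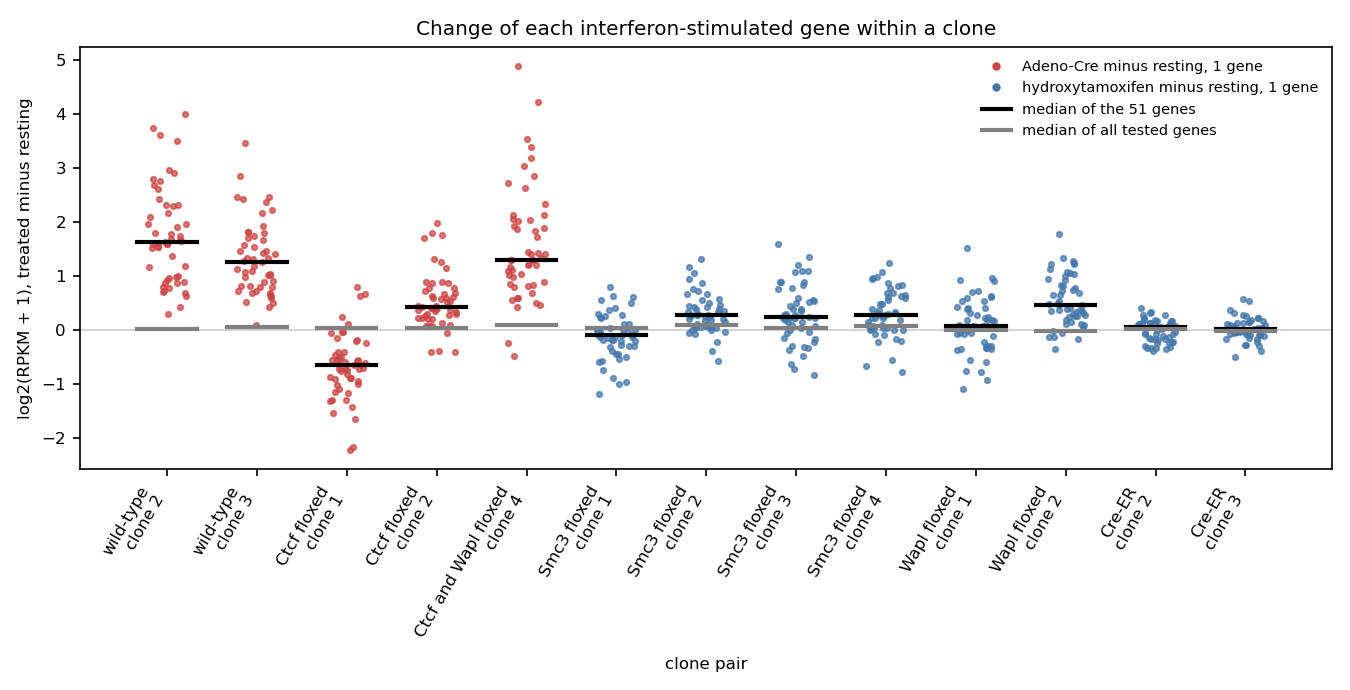
Change of each member within a clone, as log2(RPKM + 1) in the treated library minus the resting library of that clone. Points are genes (red Adeno-Cre, blue hydroxytamoxifen), black bars the median of the 51 members and grey bars the median of all tested genes. Both wild-type clones and clone 4 of the Ctcf fl/fl Wapl fl/fl cells sit above 0, Ctcf fl/fl clone 1 sits mostly below it, with 46 of 51 members lower, and both Cre-ER clones lie around it.

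All 3 transcription factor members rose in wild-type cells. Irf7, which drives later rounds of interferon transcription, was at 109 and 44.6 RPKM with Adeno-Cre (clones 2 and 3) and at 7.16 and 7.19 RPKM at rest, a log2 change of 3.11 (SE 0.48, limma adjusted p = 0.00191). Irf9, the DNA-binding part of the STAT complex, was at 31.6 and 23.5 RPKM with Adeno-Cre and at 13.4 and 11.3 RPKM at rest. The treated values lay above the resting ones for both genes, and the Irf7 values of the treated clones were further apart than those of the resting clones. Stat2, another part of that complex, was at 42 and 20.2 RPKM with Adeno-Cre and at 13.1 and 7.43 RPKM at rest. Its call lay at the threshold (log2 change 1.47, SE 0.4, limma adjusted p = 0.05 after rounding).

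Isg15 had the largest change of any member. It encodes a ubiquitin-like protein that is attached to viral and cellular proteins, and was at 435.3 and 252.2 RPKM with Adeno-Cre against 26.2 and 21.9 RPKM at rest (log2 change 3.73, SE 0.69, limma adjusted p = 0.00781). Usp18, the protease that removes ISG15 and dampens receptor signalling, was at 38.2 and 17.6 RPKM with Adeno-Cre and 2.19 and 1.57 RPKM at rest (log2 change 3.24, limma adjusted p = 0.00888). The ligases Herc6 and Trim25 did not pass the test, with log2 changes of 0.68 and 0.51.

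Among the sensors, Zbp1 and Dhx58 rose, and Ddx58 and Ifih1 did not pass. Zbp1, which binds left-handed nucleic acid and can start cell death, was at 22.9 and 8.82 RPKM with Adeno-Cre and at 1.1 and 0.77 RPKM at rest (log2 change 2.99, SE 0.42, limma adjusted p = 0.000738). Ddx58 encodes RIG-I, a sensor of viral RNA, and was at 12.6 and 10.4 RPKM with Adeno-Cre against 6.78 and 5.49 RPKM at rest. Ifih1, which encodes the RNA sensor MDA5, was at 5.23 and 3.99 RPKM with Adeno-Cre against 2.2 and 2.01 RPKM at rest. The resting and treated values of both RNA sensors did not overlap, but their log2 changes of 0.81 and 0.85 had adjusted p = 0.167 and 0.0943 (limma); with the clone as a block the values were 0.0212 and 0.0236.

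The OAS genes encode enzymes or enzyme-like proteins that respond to double-stranded RNA, and 3 of 5 rose. Oasl1 was at 8.46 and 4.01 RPKM with Adeno-Cre and at 0.207 and 0.321 RPKM at rest, with the smallest p of all members (log2 change 2.45, SE 0.25, limma adjusted p = 2.91e-05). Oasl2 was at 23.8 and 11.2 RPKM with Adeno-Cre and at 2.63 and 1.36 RPKM at rest. Oas2 also rose, by 2.12 on the log2 scale. Of the IFIT genes, whose products bind viral RNA ends, only Ifit1 rose in this test, with 34.3 and 23.1 RPKM with Adeno-Cre and 4.04 and 4.35 RPKM at rest (log2 change 2.49, limma adjusted p = 0.015). Ifit3 was at 58.6 and 31.8 RPKM with Adeno-Cre and at 16.1 and 11.4 RPKM at rest and did not pass (limma, adjusted p = 0.221; 0.0125 with the clone as a block). Several members have close copies in the mouse genome (Oas1a, the Ifit, Gbp and H2 genes), and the sources do not state how reads were shared among copies, which makes their values less certain.

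Of 15 other antiviral and induced genes tested 7 rose. Bst2, which tethers budding virus to the cell, was the most abundant of them, at 1087 and 616.1 RPKM with Adeno-Cre and 175.6 and 112.8 RPKM at rest (log2 change 2.53, SE 0.41, limma adjusted p = 0.00325). Rsad2 encodes viperin, an antiviral enzyme, and was at 5.52 and 1.8 RPKM with Adeno-Cre against 0.313 and 0.225 RPKM at rest (limma, adjusted p = 0.0129). Adar, an RNA-editing enzyme, rose by 0.7, with 23.3 and 18.5 RPKM with Adeno-Cre and 14.1 and 10.8 RPKM at rest. The others that rose were Ifi44, Ifi35, Cmpk2 and Mx2. Eif2ak2, which encodes the kinase PKR, was at 9.24 and 10.3 RPKM with Adeno-Cre and 5.59 and 5.48 RPKM at rest, and did not pass (limma, adjusted p = 0.0617; 0.00189 with the clone as a block). Mx1, the gene too low to be tested, had 0.976 and 0.152 RPKM with Adeno-Cre and 0.074 and 0.0716 RPKM at rest.

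Genes of antigen presentation rose together with the antiviral genes: 5 of 7 passed. B2m, the invariant chain of class I molecules, was at 1496.2 and 812.7 RPKM with Adeno-Cre and 494.3 and 337.2 RPKM at rest. H2-K1, a classical class I chain, was at 272.5 and 141.3 RPKM with Adeno-Cre and 89 and 50.7 RPKM at rest. H2-T23, the non-classical class I chain that presents leader peptides to natural killer cells, was at 77.1 and 33.5 RPKM with Adeno-Cre and 19.9 and 15 RPKM at rest (log2 change 1.5, SE 0.36, limma adjusted p = 0.0317). Tap1, a subunit of the peptide transporter, was at 34.2 and 23.2 RPKM with Adeno-Cre and 17.4 and 12.7 RPKM at rest. The immunoproteasome subunit Psmb9 rose, whereas Psmb8 was at 51 and 18.5 RPKM with Adeno-Cre and 16.9 and 4.54 RPKM at rest, a range in which the treated clone 3 lay close to the resting clone 2 (limma, adjusted p = 0.127). Of the interferon-inducible GTPases, which act on membranes around pathogens, Gbp3, Igtp and Ifi47 rose. Gbp2 was at 4.75 and 4.53 RPKM with Adeno-Cre and at 2.15 and 2.14 RPKM at rest, and Irgm1 at 48.7 and 37.2 RPKM with Adeno-Cre and at 14.8 and 14.4 RPKM at rest, and neither passed. The chemokine Cxcl10, which attracts T cells, was at 22.6 and 10.1 RPKM with Adeno-Cre and at 2.12 and 2.79 RPKM at rest (log2 change 2.24, limma adjusted p = 0.0204). No member of the group formed by Parp14, Parp9 and Dtx3l passed, with log2 changes of 0.78, 1.23 and 0.49.

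**Figure D2:**
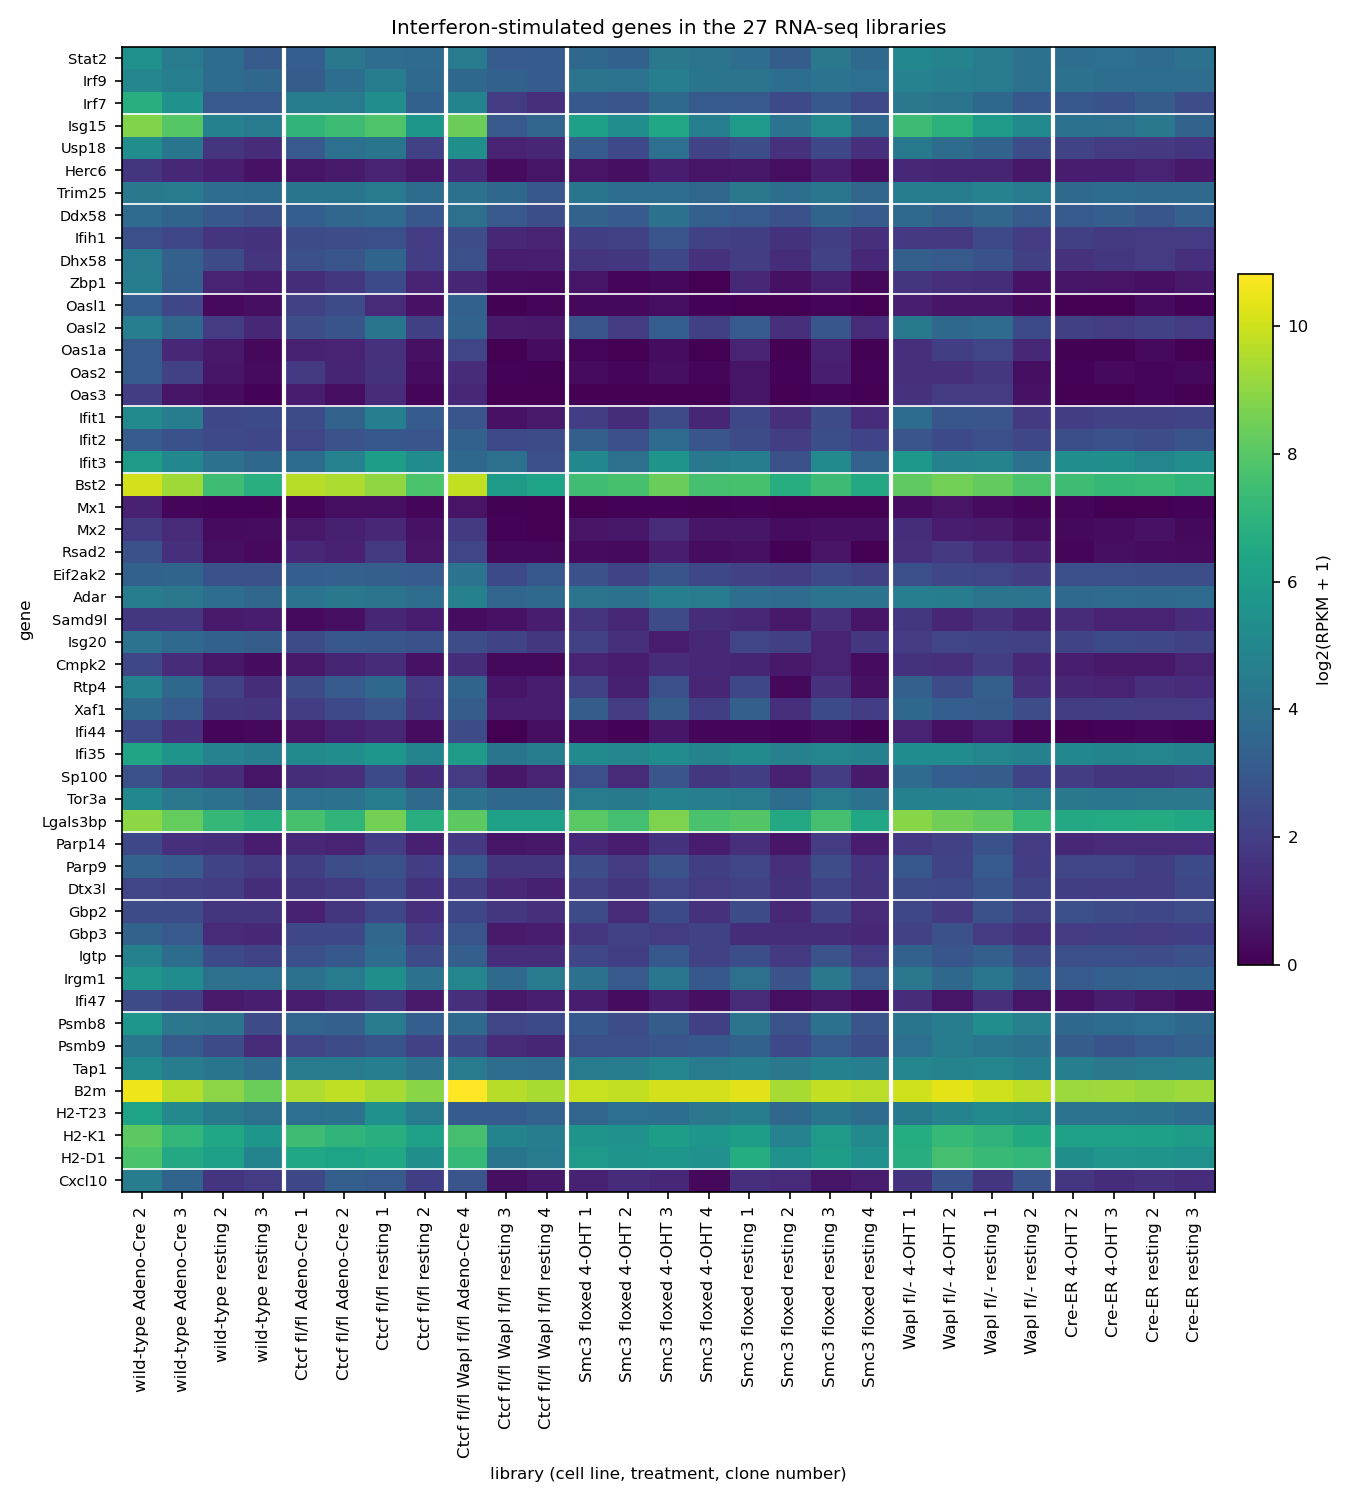
Levels of the 51 members in the 27 RNA-seq libraries as log2(RPKM + 1), by role (white horizontal lines) and cell line (white vertical lines). Each column is 1 library, with treated libraries left of resting ones. Of the 51 members 32 have their highest value in the Adeno-Cre library of wild-type clone 2 (12.8% of all genes), and the resting library of Ctcf fl/fl clone 1 is above both resting wild-type libraries for 50 (18.3% of all genes).

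In Ctcf fl/fl cells the members showed no common change with Adeno-Cre. Oasl1 was the 1 member that rose and none fell, where 5.04% of all genes tested rose and 2.63% fell, and the median change was -0.06. The 2 clones went opposite ways: 5 of 51 members were higher and 46 lower in the treated library in clone 1 (median change -0.65), and 47 of 51 were higher in clone 2 (median change 0.43). Of all genes tested 54.3% were higher in clone 1 and 55.8% in clone 2. Every treated library was above every resting library for 4 members and below for 4, against 27.3% and 21% of all genes. Oasl1 and Bst2 rose with the clone as a block, and Ifit3 and Samd9l fell; with the clone as a random effect H2-K1 also rose and H2-T23 also fell.

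The resting library of clone 1, the deepest library at 36.832 M reads, stood apart. It was above resting clone 2 for all 51 members, against 36.5% of all genes, and above both treated Ctcf fl/fl libraries for 41, against 30.3% of all genes. Resting clone 2 was below both treated libraries for 39 members, against 34.3% of all genes. Isg15 was at 134.6 and 172.5 RPKM with Adeno-Cre (clones 1 and 2) and at 228.8 and 51.9 RPKM at rest. Irf7 was at 22.8 and 21.7 RPKM with Adeno-Cre and at 38.2 and 9.21 RPKM at rest. For both genes the treated values lay between the resting ones. Ifit1 was at 4.74 and 9.82 RPKM with Adeno-Cre and at 24.8 and 7.79 RPKM at rest, with the lowest and the highest value both in clone 1. Without the resting library of clone 1 the members' median change was 0.38 and 2 members rose; without the resting library of clone 2 the median was -0.54, 1 rose and 3 fell.

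Oasl1 and Bst2 were exceptions to that order. Oasl1 was at 3.37 and 4.71 RPKM with Adeno-Cre and at 1.51 and 0.449 RPKM at rest, a log2 change of 1.39 (SE 0.25, limma adjusted p = 0.00153). Bst2 was at 817.6 and 728.6 RPKM with Adeno-Cre and at 524.2 and 213.6 RPKM at rest (log2 change 1.2, SE 0.41, limma adjusted p = 0.0891; 0.0256 with the clone as a block). The treated libraries were above both resting ones for both genes. H2-K1 had this order too, at 175.5 and 133.7 RPKM with Adeno-Cre and 109.2 and 72.2 RPKM at rest (limma, adjusted p = 0.269; 0.0656 with the clone as a fixed block and 0.0318 as a random one), as did B2m, at 735.1 and 885.1 RPKM with Adeno-Cre and 678.8 and 473 RPKM at rest. Values ran the other way for Samd9l, an antiviral factor, which was at 0.211 and 0.354 RPKM with Adeno-Cre and 1.26 and 0.799 RPKM at rest (log2 change -0.66, limma adjusted p = 0.293; 0.0281 with the clone as a block). H2-T23 was at 14.3 and 15.2 RPKM with Adeno-Cre and 43.2 and 20.2 RPKM at rest (log2 change -0.96, limma adjusted p = 0.128; 0.091 with the clone as a fixed block and 0.0235 as a random one). Both treated libraries lay below both resting ones for Samd9l and H2-T23. Ifit3, at 13.4 and 27.1 RPKM with Adeno-Cre and 66.1 and 36 RPKM at rest, had the same order (log2 change -1.31, limma adjusted p = 0.314; 0.0243 with the clone as a block).

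The effect of Adeno-Cre was smaller in Ctcf fl/fl than in wild-type cells for 7 members and larger for none, where 0.722% of all genes tested had a smaller and 0.738% a larger effect. They were Ifit1, Zbp1, Irf7, H2-T23, Gbp3, Ifi44 and Irf9. The median difference of effects over the members was -1.6 on the log2 scale, against -0.01 for all genes. For Ifit1 the log2 effect was -0.93 in Ctcf fl/fl and 2.49 in wild-type cells, a difference of -3.42 (SE 0.74, limma adjusted p = 0.0202). For Zbp1 it was -0.17 in Ctcf fl/fl and 2.99 in wild-type cells, a difference of -3.17 (SE 0.59, limma adjusted p = 0.00681). Zbp1 was at 1.68 and 2.39 RPKM in treated Ctcf fl/fl cells and at 4.42 and 1.14 RPKM at rest. The difference for Irf7 was -2.9 (SE 0.68, limma adjusted p = 0.0356) and that for H2-T23 was -2.46 (SE 0.52, limma adjusted p = 0.0161). For Irf9, at 8.08 and 14 RPKM in treated Ctcf fl/fl cells and 23.2 and 11.8 RPKM at rest, it was -1.68 (SE 0.37, limma adjusted p = 0.0204).

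This count depended on single libraries and on the block. It lay between 1, without the treated wild-type library of clone 2, and 14, without the resting Ctcf fl/fl library of clone 2. Without the resting Ctcf fl/fl library of clone 1 it was 2 and the median difference -1.04; Zbp1 kept its call (-2.49, limma adjusted p = 0.0455), as did Gbp3. Without the resting wild-type library of clone 3 the count was 2, and without the treated Ctcf fl/fl library of clone 1 it was also 2. With the clone as a block the effect was smaller for 28 members. When only the 8 libraries of these cells entered the fit, limma called no member, with 30 at an unadjusted p below 0.05. Summed macrophage markers were at 751.8 and 442.2 RPKM with Adeno-Cre and 1138.7 and 528.2 RPKM at rest in Ctcf fl/fl cells, and at 1954 and 113.2 RPKM with Adeno-Cre and 2915.1 and 173.1 RPKM at rest in wild-type cells. Their level was thus lower in the treated library of all 4 clones. Cd74, H2-Ab1, H2-Aa and H2-Eb1, a part of the list of dendritic cell markers, averaged 17, 11.8, 5.03 and 3.96 RPKM in resting Ctcf fl/fl cells. In resting wild-type cells they averaged 0.403, 0.327, 0 and 0.714 RPKM. Which cells expressed these genes cannot be told from bulk RNA. The lymphocyte markers Cd79a and Cd79b were also higher in resting Ctcf fl/fl cells and Cd8a was lower, and limma called none of these genes. The part of all these markers in the results was not tested.

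**Figure D3:**
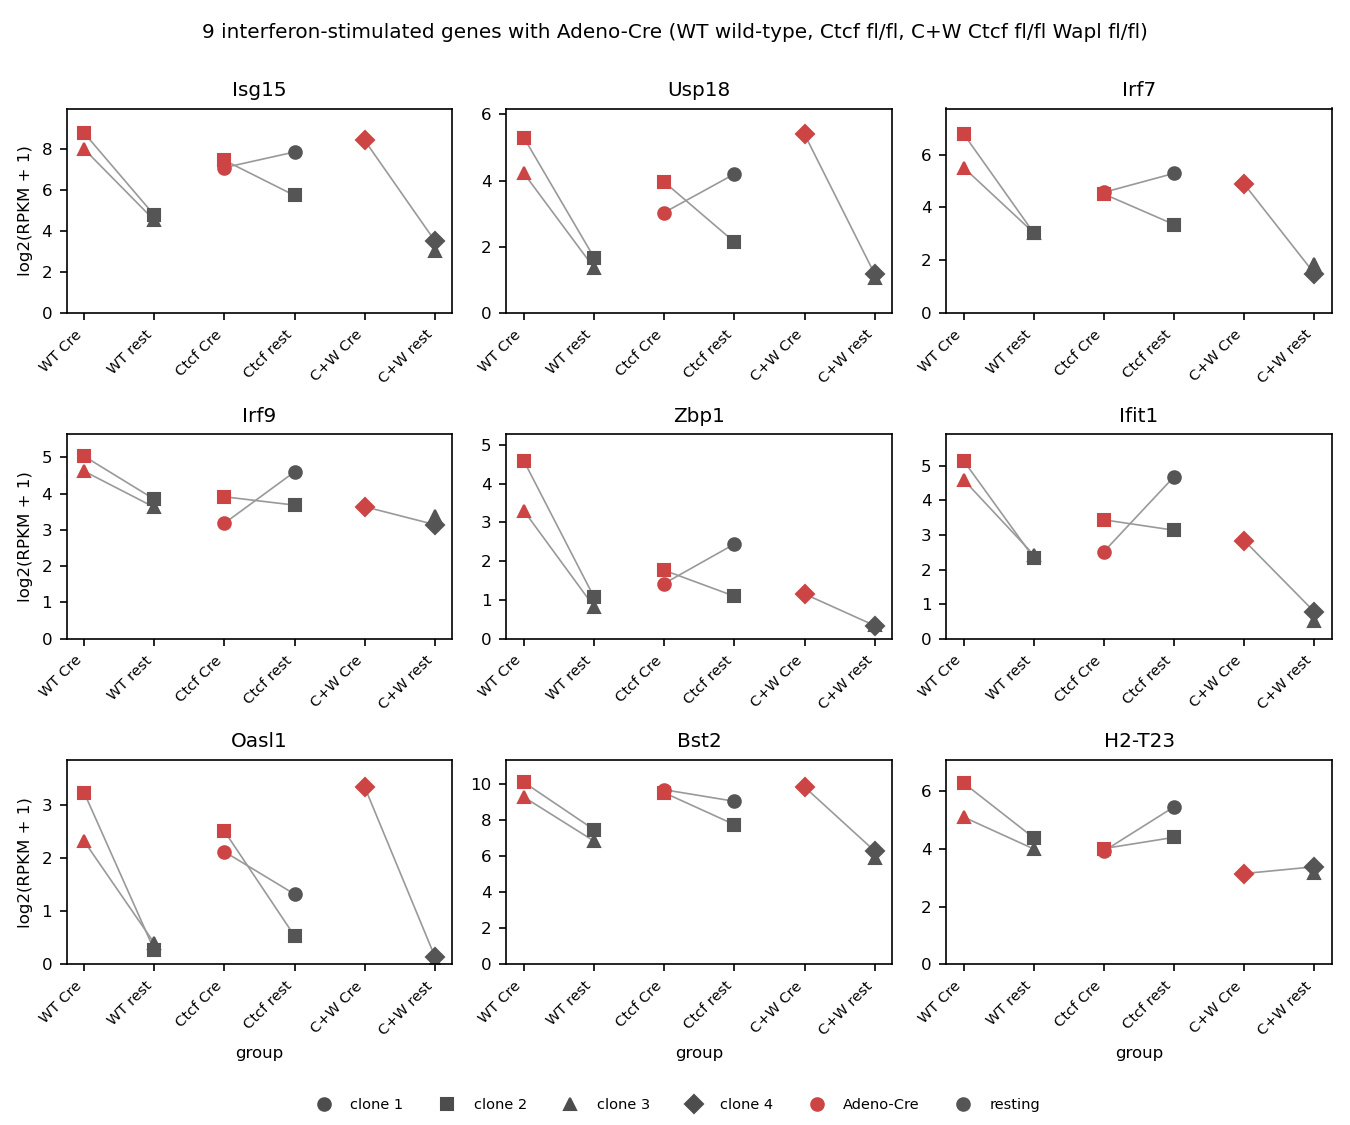
Levels of 9 members as log2(RPKM + 1) in wild-type (WT), Ctcf fl/fl (Ctcf) and Ctcf fl/fl Wapl fl/fl (C+W) cells with Adeno-Cre (red) and at rest (grey). Each symbol is 1 library, its shape gives the clone, and lines join the libraries of 1 clone. The lines fall from Adeno-Cre to rest in both wild-type clones for all 9, and run in opposite directions in the Ctcf fl/fl clones for Isg15, Usp18, Irf7, Irf9, Zbp1 and Ifit1.

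In Ctcf fl/fl Wapl fl/fl cells Adeno-Cre raised the members again. Of 50 tested 26 rose and none fell, where 10.5% of all genes tested rose and 5.34% fell, and the median change was 1.32 against 0.18 for all genes. The treated library was above both resting libraries for 48 of 51 members and below both for H2-T23 and Samd9l, against 51.3% and 25% of all genes. There was 1 treated library, so its spread was taken from the other groups and it was assumed to vary as they do. The 26 calls became 17 without the resting library of clone 3 and 33 with the clone as a block. When only the 3 libraries of these cells entered the fit, limma called no member, with 37 at an unadjusted p below 0.05.

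Isg15 was at 338 RPKM with Adeno-Cre and at 7.02 and 10.4 RPKM at rest (clones 3 and 4), a log2 change of 5.15 (SE 0.85, limma adjusted p = 0.000516). Usp18 was at 41.1 RPKM with Adeno-Cre and 1.08 and 1.26 RPKM at rest (log2 change 4.28, SE 0.75, limma adjusted p = 0.000865). Bst2 was at 909 RPKM with Adeno-Cre and 58.4 and 76.8 RPKM at rest. These were the 3 largest changes. Oasl1 was at 9.16 RPKM with Adeno-Cre and at 0.0513 and 0.107 RPKM at rest (log2 change 3.23, SE 0.31, limma adjusted p = 1.25e-06). Irf7 was at 28.4 RPKM with Adeno-Cre and at 2.66 and 1.81 RPKM at rest (log2 change 3.2, SE 0.59, limma adjusted p = 0.00119). Among treated libraries, Oasl1 was higher here than in either wild-type clone and Irf7 was lower.

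The class I chains H2-D1 and H2-K1 rose with them. H2-K1 was at 196.2 RPKM with Adeno-Cre and at 28.2 and 22.9 RPKM at rest (log2 change 2.9, SE 0.47, limma adjusted p = 0.000375). H2-D1 rose by 2.96, with 153.4 RPKM with Adeno-Cre and 17.6 and 20.2 RPKM at rest. The related chain H2-T23 did not pass the test, at 7.88 RPKM with Adeno-Cre and 7.96 and 9.45 RPKM at rest (log2 change -0.12, SE 0.45, limma adjusted p = 0.894). Eif2ak2 rose to 16.4 RPKM with Adeno-Cre, against 4.37 and 7 RPKM at rest, and Adar to 26 RPKM, against 10.7 and 12.3 RPKM at rest. The transcription factors other than Irf7 did not pass: Stat2 was at 21.4 RPKM with Adeno-Cre and 7.72 and 7.89 RPKM at rest, and Irf9 at 11.4 RPKM with Adeno-Cre and 9.33 and 7.83 RPKM at rest. Zbp1, which had risen in wild-type cells, was at 1.22 RPKM with Adeno-Cre and 0.278 and 0.264 RPKM at rest (log2 change 0.81, SE 0.51, limma adjusted p = 0.318). Cxcl10 rose by 2.26 to 6.15 RPKM with Adeno-Cre, against 0.372 and 0.622 RPKM at rest.

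The effect of Adeno-Cre in Ctcf fl/fl Wapl fl/fl cells was larger than in Ctcf fl/fl cells for 6 members and smaller for none, where 0.778% of all genes tested had a larger and 0.603% a smaller effect. The median difference was 1.41, against 0.1 for all genes. The 6 were Isg15, Gbp3, Ifi44, Oasl1, Mx2 and Ifi35. For Isg15 the log2 effect was 5.15 in Ctcf fl/fl Wapl fl/fl and 0.48 in Ctcf fl/fl cells, a difference of 4.67 (limma, adjusted p = 0.0431). For Gbp3, a guanylate-binding protein, it was 2.06 in Ctcf fl/fl Wapl fl/fl and -0.44 in Ctcf fl/fl cells, a difference of 2.5 (limma, adjusted p = 0.0197). The treated Ctcf fl/fl Wapl fl/fl library was above both treated Ctcf fl/fl libraries for 37 of 51 members, against 50.7% of all genes. The count was 18 with the clone as a block, under which Oasl1 was not among the calls (limma, adjusted p = 0.0522), and between 0 and 12 when single libraries were left out: it was 12 without the resting Ctcf fl/fl library of clone 2, 9 without the resting Ctcf fl/fl Wapl fl/fl library of clone 4, 2 without the treated Ctcf fl/fl library of clone 2, 1 without the resting Ctcf fl/fl library of clone 1, and 0 without the treated Ctcf fl/fl library of clone 1 or the resting Ctcf fl/fl Wapl fl/fl library of clone 3.

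Against wild-type cells, the effect in Ctcf fl/fl Wapl fl/fl cells differed for no member by limma, with 5 at an unadjusted p below 0.05; of all genes tested 2.15% had a larger and 1.72% a smaller effect. The median difference was 0.09. Once the clone was a block, the effect on Samd9l was smaller (limma, adjusted p = 0.0203). With the clone as a random effect it was smaller also for H2-T23 and Zbp1 and larger for H2-K1. Samd9l was at 0.277 RPKM with Adeno-Cre and 0.459 and 0.789 RPKM at rest in Ctcf fl/fl Wapl fl/fl cells, and at 2.38 and 2.28 RPKM with Adeno-Cre and 0.716 and 0.773 RPKM at rest in wild-type cells. The treated Ctcf fl/fl Wapl fl/fl library was above both treated wild-type libraries for 9 of 51 members, against 43.6% of all genes. In these Ctcf fl/fl Wapl fl/fl cells 5 of 14 fibroblast markers were lower with Adeno-Cre (Pdgfrb, Postn, Col1a2, Col5a1 and Pdgfra), against 5.34% of all genes tested. Summed macrophage markers were at 743.2 RPKM with Adeno-Cre and 139 and 963.4 RPKM at rest. The part of both sets of markers in the results was not tested.

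A pair of further Ctcf fl/fl Wapl fl/fl libraries, both labelled Adeno-Cre and both from clone 3, was deposited in a table of its own and is described without a test. The name of that table refers to serum stimulation, whereas the treatment labels of both libraries name no serum. Whether either library received serum cannot be told from the labels, and a part of serum in their differences was not tested. The first library labelled Adeno-Cre had 325.1 RPKM of Isg15, 858.5 RPKM of Bst2 and 52.1 RPKM of Irf7, and the second library labelled Adeno-Cre had 3.94, 57.6 and 1.25 RPKM. Ctcf itself was at 3.17 RPKM in the first and 7.62 RPKM in the second, so the second goes against its label. Of the 51 members 49 were higher in the first library and 40 at least 2-fold higher on the log2(RPKM + 1) scale, against 60.3% and 16.8% of all genes at 1 RPKM or more in either. The median difference was 1.55, against 0.22 for all such genes. H2-T23 and Samd9l were again the exceptions, with 8.41 and 12.2 RPKM of H2-T23 in the first and the second.

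Other genes of the interferon pathway were looked at as lists. No interferon ligand gene passed the filter, out of 19 in the table, and the gene for interferon beta, Ifnb1, was above 0 in 1 library, at 0.0598 RPKM. Of 9 receptor and kinase genes none was called in wild-type or Ctcf fl/fl cells and 1, Il28ra, rose in Ctcf fl/fl Wapl fl/fl cells. Of 55 further interferon-stimulated genes that were tested, 10 rose and none fell in wild-type cells, led by Apol9b, Apol9a and D14Ertd668e. Of all genes tested 2.7% rose and 0.54% fell there. In Ctcf fl/fl cells 1 of the 55 rose (Ifi30) and 2 fell (Tap2 and Ifitm1), against 5.04% and 2.63% of all genes. In Ctcf fl/fl Wapl fl/fl cells 18 of the 55 rose and none fell, against 10.5% and 5.34% of all genes. The effect was smaller in Ctcf fl/fl than in wild-type cells for 5 of the 55, against 0.722% of all genes. Of 19 NF-kB targets tested, which answer inflammatory signals, none was called in wild-type cells, and Nfkb2 rose in both floxed lines. The genes outside the members whose levels ran most like the members' mean over the 27 libraries were Iigp1 (r = 0.914), Oas1b (0.904), Irgm2 (0.893), Slfn8 (0.886) and Gm4951 (0.87), as a description. Among the members Oasl2 was most like the mean (0.967) and Isg20 least (0.408).

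Resting levels differed between cell lines before any treatment. By their lab numbers, the Smc3-floxed and Wapl fl/- libraries form a series and the Ctcf fl/fl Wapl fl/fl libraries another. Wild-type, Cre-ER and Ctcf fl/fl clone 2 libraries form a further series, with Ctcf fl/fl clone 1 apart. The labels do not say what the numbers stand for, and line and series cannot be told apart. The mean log2(RPKM + 1) of the 51 members was 3.7 and 2.71 in resting Ctcf fl/fl cells, 2.02 and 2.04 in Ctcf fl/fl Wapl fl/fl cells, 2.22 to 2.97 in the 4 Smc3-floxed clones, 3.48 and 2.91 in Wapl fl/- cells, 2.66 and 2.62 in Cre-ER cells and 2.71 and 2.37 in wild-type cells. Of the 14 resting libraries, Ctcf fl/fl clone 1 had the highest value for 28 members and Wapl fl/- clone 1 for 20, against 2.53% and 12% of all genes. The lowest was in clone 3 of the Ctcf fl/fl Wapl fl/fl cells for 18 members and in clone 4 for 15, against 13.8% and 12.3% of all genes. By line mean the order ran from Ctcf fl/fl and Wapl fl/- through Cre-ER, Smc3-floxed and wild-type to Ctcf fl/fl Wapl fl/fl cells. Neighbouring lines overlapped, apart from Wapl fl/- and Cre-ER and from wild-type and Ctcf fl/fl Wapl fl/fl cells. The resting library of Ctcf fl/fl clone 1 was next to the treated library of wild-type clone 3, at 3.71.

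**Figure D4:**
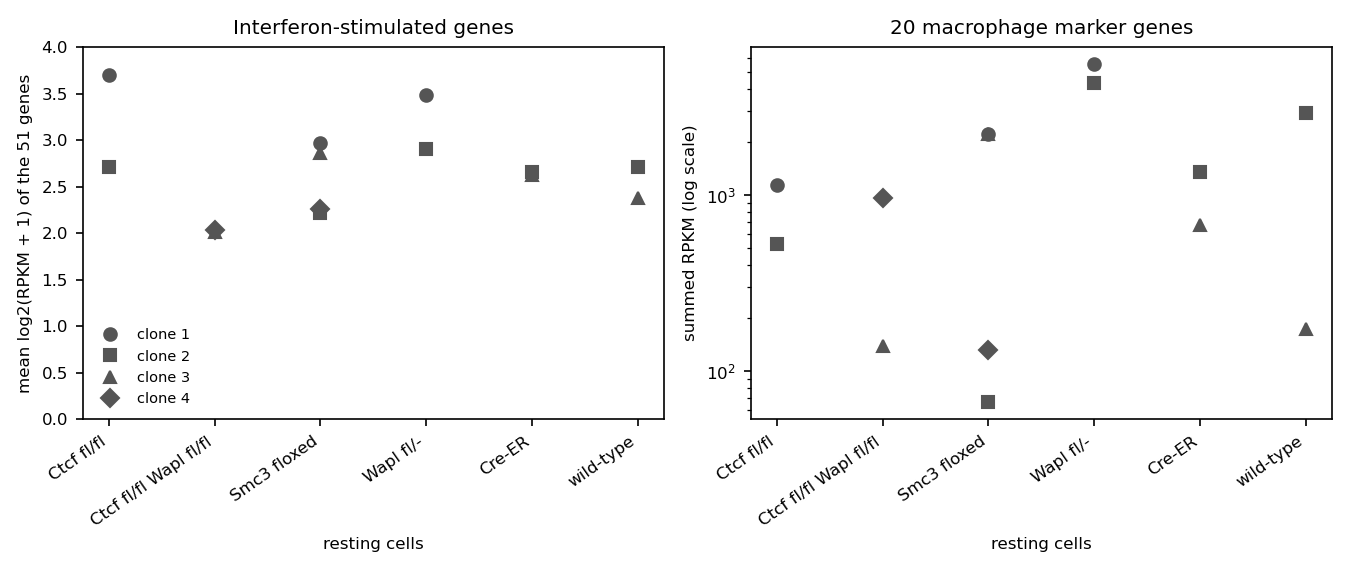
Resting libraries of each cell line. Left, mean log2(RPKM + 1) of the 51 members; right, summed RPKM of 20 macrophage markers on a log scale. Each symbol is 1 library and its shape the clone. Ctcf fl/fl clone 1 (3.7) and Wapl fl/- clone 1 (3.48) are highest on the left, and the Wapl fl/- clones (5546.7 and 4322 RPKM) are highest on the right.

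Resting Wapl fl/- cells, which also carry Rosa26 CreER/+ and a null Wapl allele, had 11 members higher and 2 lower than resting wild-type cells, where 12.1% of all genes tested were higher and 16.7% lower. Of the 11, 5 act in antigen presentation. Psmb9 was at 18.1 and 15.6 RPKM in Wapl fl/- and 4.66 and 1.49 RPKM in wild-type cells (log2 difference 2.25, SE 0.39, limma adjusted p = 0.000454). H2-D1 was at 157 and 141.9 RPKM in Wapl fl/- and 67.2 and 28.1 RPKM in wild-type cells (log2 difference 1.75, limma adjusted p = 0.00852). B2m, Tap1 and Psmb8 were higher as well, and so was Sp100, a nuclear body protein, by 1.7. Both Wapl fl/- libraries were above both wild-type ones for 33 of 51 members, against 32.6% of all genes. Isg15 was at 57.9 and 35.3 RPKM in Wapl fl/- and 26.2 and 21.9 RPKM in wild-type cells and did not pass (limma, adjusted p = 0.36). The 13 calls became 1 without the resting wild-type library of clone 3, 1 without the resting Wapl fl/- library of clone 1 and 11 with the clone as a random effect. Summed macrophage markers were at 5546.7 and 4322 RPKM in Wapl fl/- and 2915.1 and 173.1 RPKM in wild-type cells, with Ptprc and Cd14 called higher; their part in the result was not tested.

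In resting Ctcf fl/fl Wapl fl/fl cells 2 members were lower than in wild-type cells and none higher, where 4.03% of all genes tested were lower and 2.41% higher. The share of members called lower was thus close to that of all genes. H2-K1 was at 28.2 and 22.9 RPKM in Ctcf fl/fl Wapl fl/fl and 89 and 50.7 RPKM in wild-type cells (log2 difference -1.37, limma adjusted p = 0.0387; 0.0578 with the clone as a random effect). Isg20, an exonuclease that degrades viral RNA, was at 3.54 and 2.39 RPKM in Ctcf fl/fl Wapl fl/fl and 9.17 and 8.12 RPKM in wild-type cells (log2 difference -1.3, limma adjusted p = 0.0319). Both libraries were below both wild-type ones for 34 of 51 members, against 29.4% of all genes. The 2 calls became 0 without the resting wild-type library of clone 2 or the resting Ctcf fl/fl Wapl fl/fl library of clone 4, and 1 without either of the others.

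In resting Ctcf fl/fl cells no member was called by limma, with 13 at an unadjusted p below 0.05, where 0.0238% of all genes tested were higher and 0.222% lower than in wild-type cells. The median difference of 0.55 became 0.13 without clone 1. In resting Smc3-floxed cells B2m, Psmb9 and Tap1 were higher and Isg20 and Eif2ak2 lower, where 8.72% of all genes tested were higher and 16.8% lower. Among the members both shares were smaller than among all genes. B2m was at 1303.9, 684, 906.8 and 835.1 RPKM in Smc3-floxed cells (clones 1 to 4) and at 494.3 and 337.2 RPKM in wild-type cells (log2 difference 1.15, SE 0.25, limma adjusted p = 0.00257). Isg20 was at 3.75, 3.11, 1.06 and 2.35 RPKM in Smc3-floxed cells and at 9.17 and 8.12 RPKM in wild-type cells (log2 difference -1.5, limma adjusted p = 0.00153). The groups did not overlap for either gene. The 5 calls became 1 to 4 when single libraries were left out, with 1 without the resting wild-type library of clone 3, 2 without Smc3-floxed clone 4 and 3 without Smc3-floxed clone 3; with the clone as a random effect Psmb9 was no longer called (limma, adjusted p = 0.0796). In resting Cre-ER cells no member was called by limma, with 4 at an unadjusted p below 0.05, where 2.6% of all genes tested were higher and 4.09% lower.

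Hydroxytamoxifen activates Cre without a virus. In Cre-ER cells with no floxed gene no member was called by limma after hydroxytamoxifen, none had an unadjusted p below 0.05, and 0% of all genes tested rose and 0% fell. Isg15 was at 15.3 and 14.8 RPKM with hydroxytamoxifen (clones 2 and 3) and 19.4 and 9.83 RPKM at rest. Bst2 was at 175.1 and 146.7 RPKM with hydroxytamoxifen and 155.1 and 132.2 RPKM at rest. The ranges overlapped for both genes. The difference between the Adeno-Cre effect in wild-type cells and the hydroxytamoxifen effect in Cre-ER cells was not tested.

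In the Smc3-floxed libraries labelled hydroxytamoxifen, where Smc3 itself was not lower, 1 member, Ifit2, rose and none fell, where 9.37% of all genes tested rose and 5.6% fell. Ifit2, a partner of IFIT1 in binding viral RNA, was at 8.77, 5.24, 12.9 and 6.26 RPKM in libraries labelled hydroxytamoxifen (clones 1 to 4) and at 4.61, 2.9, 5.04 and 3.5 RPKM at rest (log2 change 0.84, SE 0.21, limma adjusted p = 0.00919). Every treated library was above every resting one for 2 members, Ifit2 among them, and below for none, against 9.54% and 6.12% of all genes. With the clone as a block 9 members rose, Ifit2, Samd9l, Eif2ak2, Adar, Sp100, Lgals3bp, Ifit3, Ifih1 and Bst2, and Psmb8 fell. Isg15 was at 69.2, 38.4, 86 and 24.1 RPKM in libraries labelled hydroxytamoxifen and 57.6, 16.5, 32.9 and 11.8 RPKM at rest, higher in each of the 4 clones with overlapping groups. Without the treated library of clone 2 there were 4 calls, and without the resting library of clone 3 there were 2. Summed macrophage markers were at 31.1 to 445.2 RPKM in libraries labelled hydroxytamoxifen, against 66.2 to 2219.8 RPKM at rest; their part in the result was not tested.

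In Wapl fl/- cells no member was called by limma after hydroxytamoxifen, with 2 at an unadjusted p below 0.05, where 1.5% of all genes tested rose and 0.928% fell. With the clone as a block Adar, Eif2ak2, Isg15 and Sp100 rose. Isg15 was at 168.9 and 123.8 RPKM with hydroxytamoxifen (clones 1 and 2) and 57.9 and 35.3 RPKM at rest (log2 change 1.66, SE 0.69, limma adjusted p = 0.261; 0.0478 with the clone as a block). Irf7 was at 18.9 and 17.1 RPKM with hydroxytamoxifen and 11.1 and 6.7 RPKM at rest. The treated libraries were above the resting ones for both genes. Both treated libraries were above both resting ones for 20 of 51 members and below for 3, against 23.2% and 25.6% of all genes. Summed macrophage markers were at 1137.7 and 3411.3 RPKM with hydroxytamoxifen and 5546.7 and 4322 RPKM at rest.

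Nascent RNA was measured by GRO-seq, in which nuclei extend transcripts already begun with a labelled nucleotide, so that values follow polymerase activity rather than RNA content. The deposited values for Ctcf fl/fl Wapl fl/fl cells pool clones 1 and 2 for each condition, so there is no test, and their clones differ from the one measured by RNA-seq. Values are TPM, and differences are on the log2(TPM + 1) scale. The median difference of all genes was -0.45, against 0.07 for the members, of which 27 were higher and 24 lower with Adeno-Cre; 20% of all genes were higher. At least 2-fold higher were 12 members and at least 2-fold lower was 1, Ifit3, where 3.46% of all genes were higher and 17.2% lower by that measure. When the columns were scaled so that the median gene did not move, 44 members were higher and 7 lower, with a median of 0.55, and 46.6% of all genes were higher.

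Bst2 was at 19 TPM with Adeno-Cre and 2.44 TPM at rest, a log2 difference of 2.54, and its mRNA rose by 3.55 in clone 4. Irf7 was at 15.5 TPM with Adeno-Cre and 2.39 TPM at rest, and Isg15 at 27.7 TPM with Adeno-Cre and 9.01 TPM at rest. Rtp4, a chaperone of receptors, was at 9.09 TPM with Adeno-Cre and 1.3 TPM at rest. These genes were higher in both assays. H2-T23 was at 8.02 TPM with Adeno-Cre and 2.84 TPM at rest, whereas its mRNA differed by -0.24 in clone 4. Ifit3 was at 6.43 TPM with Adeno-Cre and 24.3 TPM at rest, whereas its mRNA differed by 0.98. Of the 51 members 26 were higher in both assays, 23 were lower in GRO-seq and higher in mRNA, 1 was higher in GRO-seq and lower in mRNA (H2-T23) and 1 was lower in both (Samd9l). These counts use the columns as deposited.

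**Figure D5:**
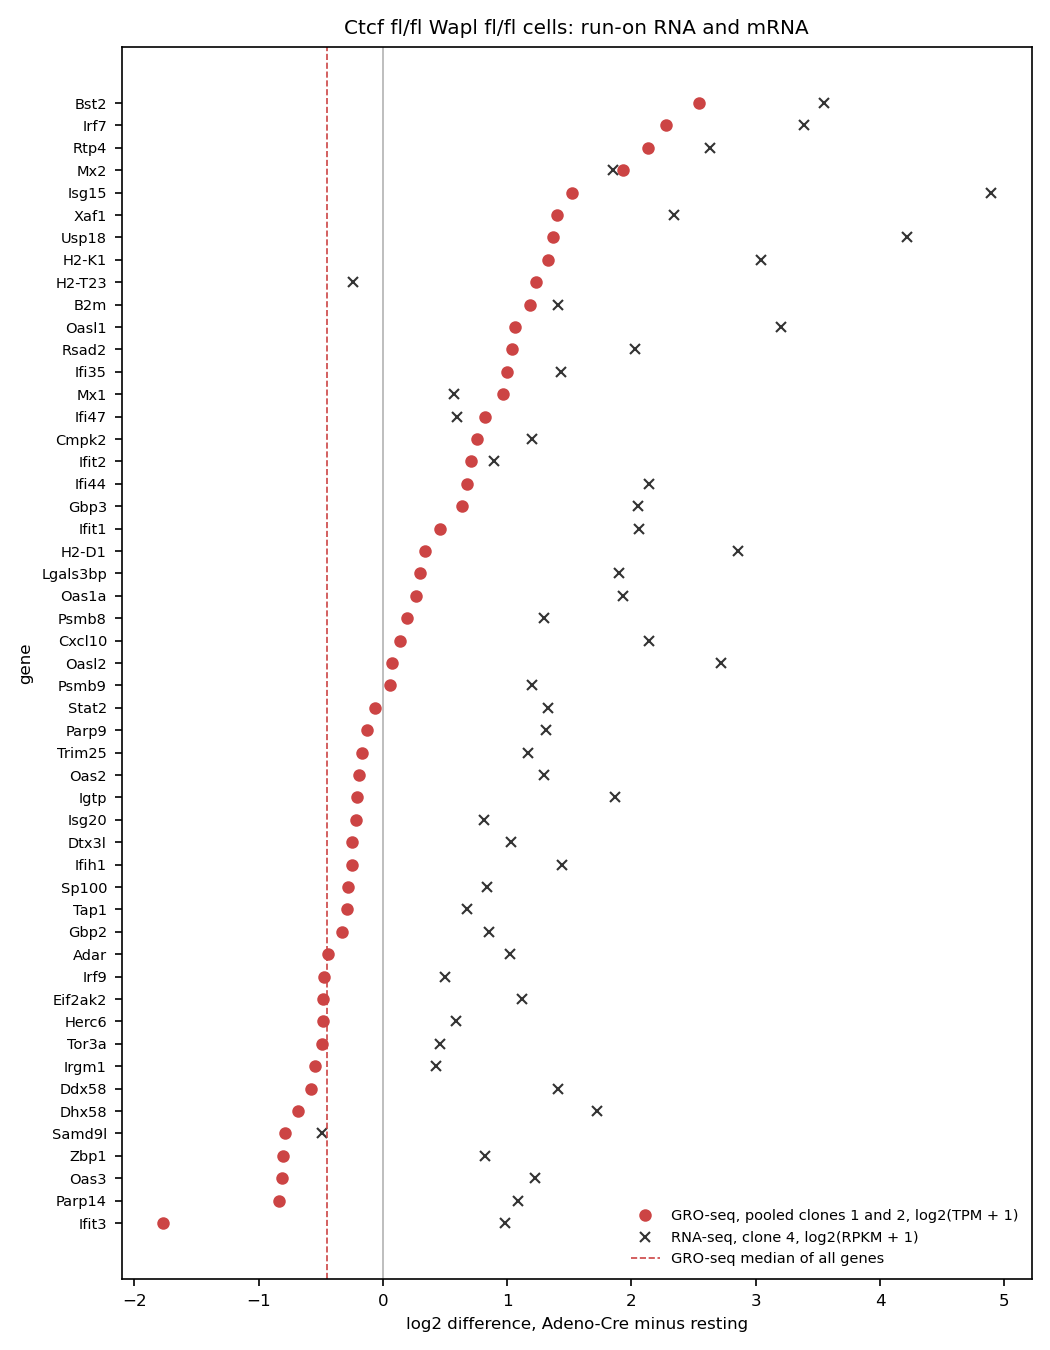
Log2 difference, Adeno-Cre minus resting, of each member in Ctcf fl/fl Wapl fl/fl cells: GRO-seq of pooled clones 1 and 2 (red circles, log2(TPM + 1)) and RNA-seq of clone 4 (black crosses, log2(RPKM + 1)). The dashed line is the GRO-seq median of all genes (-0.45). Bst2, Irf7 and Rtp4 are highest in GRO-seq and Ifit3 is lowest, and most crosses lie right of their circle.

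GRO-seq was also run on treated Ctcf fl/fl Wapl fl/fl cells given DRB, which blocks the release of polymerase into elongation, for 3.5 h. A further sample was taken 1 d after DRB had been washed out. These 2 columns sum to 100000 as deposited and the others to 200000, so they were multiplied by 2. All columns then have the same total. Values are therefore shares of the remaining signal, and a change of total nascent RNA with DRB cannot be seen in them. The members' summed level was 320.9 TPM with DRB, 339.9 TPM after washout, 337.7 TPM with Adeno-Cre alone and 261 TPM at rest. It was 275.2 TPM in a pooled wild-type column whose header names no sample. The libraries behind that column could not be fully worked out, and 4 GRO-seq samples of wild-type and Cre-ER cells refer to it. The median member differed by -0.68 with DRB from Adeno-Cre alone, against -0.41 for all genes, and by -0.15 after washout, against -0.06. With DRB 12 of 51 members (23.5%) were higher, close to the share of all genes, 24.2%. Members went both ways: B2m was at 101.8 TPM with DRB and 48 TPM without. Isg15 was at 6.2 TPM with DRB, 26.8 TPM after washout and 27.7 TPM without DRB. Each is 1 library or 1 pool, so the values have no replicate check.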

How the data were processed

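The RNA-seq values were deposited by the authors as RPKM (reads scaled to transcript length and library size), 1 column per library; per the submitters' processing notes, which give no order of steps, TopHat 1.3.1 and 1.4.1, Bowtie 0.12.5, HTSeq and bedtools were used with the mouse genome build mm9. The strand setting of the counting is not given in the sources used here. The GRO-seq values were deposited by the authors as TPM, pooled over libraries of a condition. For 18139 of 18155 genes (99.91%) the RPKM steps gave whole reads within 0.02, from which the depth of 7.315 to 36.832 M reads per library was worked out, and no interval of counting error was computed.

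From the RPKM values, log2(RPKM + 1) was fitted with limma 3.58.1 (R 4.3.3, trend and robust empirical Bayes), with 1 mean per group over 27 libraries and 12 groups, for genes at 1 RPKM or more in at least 2 libraries. P-values are two-sided, adjusted over all 12604 genes by Benjamini-Hochberg, with a threshold of 0.05. Fold changes on this scale understate changes of genes near 0. Libraries with the same clone number share a clone, per the labels; their deviations from the group means correlated at 0.76 in wild-type, 0.68 in Ctcf fl/fl, 0.49 to 0.7 in Smc3-floxed, 0.47 in Wapl fl/- and -0.2 in Cre-ER cells, and fits with the clone as a fixed block and as a random effect were made beside the main one (for resting lines a random effect alone). No outcome of a check of the fit on simulated data is given here, so such a check is no support for the calls.

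The members and the gene lists were chosen with earlier results of these data known. Every member is counted. Values per library were given for 25 members that cover all roles, and for members past the threshold among the 5 highest or lowest changes of a comparison; other members past a threshold, and those with exceptional orders (Samd9l, Gbp3, Ifi44, Isg20), were named after their values were seen. Alternatives were the pseudocount, the filter, another scaling, removal of a length trend, plain empirical Bayes, the block, the groups in the fit and each library left out. The ChIP data of the study were not used here.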

Additional observations from a re-analysis of the deposited data

Results flagged for a closer look

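Among 102 sets of 4 libraries tested for a value far from the other 3, 6 were marked. Chance would mark 1 in 20 if the sets were independent, which sets that share libraries are not. The Smc3-floxed library of clone 3 labelled hydroxytamoxifen was the highest of its 4 libraries for 5 of the 6 marked sets: Irf9 at 23.62 RPKM, Ifih1 at 6.276 RPKM, Mx2 at 1.532 RPKM, Rsad2 at 0.784 RPKM and Tap1 at 29.11 RPKM. The resting library of the same clone had 0.1126 RPKM of Oasl1 and the other 3 resting Smc3-floxed libraries were at 0.

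The effect of Adeno-Cre differed between cell lines by the test of the difference itself (limma, adjusted p below 0.05) in both of the following comparisons. It was smaller in Ctcf fl/fl than in wild-type cells for Ifit1 (-3.42 on the log2 scale), Zbp1 (-3.17), Irf7 (-2.9), H2-T23 (-2.46), Gbp3 (-2.39), Ifi44 (-1.76) and Irf9 (-1.68). It was larger in Ctcf fl/fl Wapl fl/fl than in Ctcf fl/fl cells for Isg15 (4.67), Gbp3 (2.5), Ifi44 (2.32), Oasl1 (1.84), Mx2 (1.83) and Ifi35 (1.63). Both comparisons share the Ctcf fl/fl libraries, of which the resting ones had 228.8 RPKM (clone 1) and 51.9 RPKM (clone 2) of Isg15.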

How the results depend on the processing

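Counts are of members called. When libraries were left out one at a time, the count lay between 2 and 31 (27 with all libraries) for Adeno-Cre in wild-type cells, 1 and 4 (1) in Ctcf fl/fl cells, 17 and 21 (26) in Ctcf fl/fl Wapl fl/fl cells, 1 and 14 (7) for the difference of Ctcf fl/fl from wild-type effects, 0 and 2 (0) for that of Ctcf fl/fl Wapl fl/fl from wild-type and 0 and 12 (6) for that of Ctcf fl/fl Wapl fl/fl from Ctcf fl/fl. At rest against wild-type it lay between 0 and 1 for Ctcf fl/fl (0), 0 and 1 for Ctcf fl/fl Wapl fl/fl (2), 0 and 1 for Cre-ER (0), 1 and 4 for Smc3-floxed (5) and 1 and 12 for Wapl fl/- cells (13); after hydroxytamoxifen between 1 and 4 in Smc3-floxed cells (1), and 0 throughout in Cre-ER and Wapl fl/- cells. With the clone as a replicate block, fixed and random, the 3 Adeno-Cre effects gave 48 and 49 (wild-type), 4 and 6 (Ctcf fl/fl) and 33 and 39 (Ctcf fl/fl Wapl fl/fl), the differences 28 and 37 (Ctcf fl/fl from wild-type), 1 and 4 (Ctcf fl/fl Wapl fl/fl from wild-type) and 18 and 29 (Ctcf fl/fl Wapl fl/fl from Ctcf fl/fl), and hydroxytamoxifen 10 and 15 (Smc3-floxed) and 4 and 4 (Wapl fl/-); with the random block resting Ctcf fl/fl Wapl fl/fl cells gave 1, Smc3-floxed 4, Wapl fl/- 11 and the other lines 0. Cre-ER cells gave 0 under both blocks after hydroxytamoxifen. With only the groups compared in the fit there were 0 calls for the Adeno-Cre effect in each of the 3 lines and for the differences of Ctcf fl/fl from wild-type and of Ctcf fl/fl Wapl fl/fl from Ctcf fl/fl, and at rest 1 for Ctcf fl/fl Wapl fl/fl, 5 for Cre-ER and 2 for Smc3-floxed cells; such fits have fewer samples. A mean of at least 5 RPKM, which tests fewer members, gave 17, 0 and 14 for Adeno-Cre in wild-type, Ctcf fl/fl and Ctcf fl/fl Wapl fl/fl cells, 4 and 0 for the differences of Ctcf fl/fl from wild-type and of Ctcf fl/fl Wapl fl/fl from Ctcf fl/fl, and 1 and 8 for resting Ctcf fl/fl Wapl fl/fl and Wapl fl/- cells. Without a filter the last difference gave 12 and resting Ctcf fl/fl Wapl fl/fl cells 1; with a pseudocount of 0.1 that difference gave 2 and resting Cre-ER cells 1. Removal of the length trend gave 14 for wild-type cells and 1 for resting Cre-ER cells, and median-of-ratios rescaling 1 for resting Ctcf fl/fl Wapl fl/fl cells. For GRO-seq, 12 members at least 2-fold higher became 2 with a pseudocount of 10 and 19 after rescaling, and the 1 lower became 4 with a pseudocount of 0.1. The cause of these shifts was not tested. Crossing the Cre-ER clone numbers, an alternative added after seeing the data, gave 0 calls. Of 1088 values of single called genes under alternatives, 767 stayed past the threshold in the same direction, 321 no longer passed it and 0 reversed. Members under 1 RPKM, such as Mx1, Mx2 and Oas3 at rest, are limited by depth.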

Other observations

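Genes whose role is to limit the interferon response were looked at in the same fits. Of 13 tested none was called in wild-type or Ctcf fl/fl cells by limma, and in Ctcf fl/fl Wapl fl/fl cells Socs1, which blocks receptor kinases, and Pias4, a SUMO ligase that acts on STAT proteins, rose with Adeno-Cre. Among 18 genes of nucleic acid sensing and its adaptors outside the members, Ifi204, a DNA sensor of the mouse, rose in wild-type cells, and Nlrc5, Ifi204 and Traf3 rose in Ctcf fl/fl Wapl fl/fl cells. Of all genes tested 2.7% rose in wild-type and 10.5% in Ctcf fl/fl Wapl fl/fl cells. Nlrc5 is known as the transactivator of class I genes, and its effect was larger in Ctcf fl/fl Wapl fl/fl than in Ctcf fl/fl cells. None of the 18 was called in Ctcf fl/fl cells.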
